A study of Mus musculus with 4 samples.

Results

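The 9 cadherins described here are Cdh1, Cdh3, Cdh17, Cdh16, Cdh2, Cdh11, Cdh6, Cdh13 and Cdh5, measured by all 17 probe sets whose platform annotation gives 1 of these symbols alone, out of 45037 probe sets and 18193 named genes on the array. They were chosen by name, with earlier results of these data known. RNA was read on 4 Affymetrix Mouse430_2 arrays of mouse liver cell lines. Resident liver stem cell (RLSC) lines had been picked for palmate colonies: MetE14/3, originating from clone B2 of livers of embryos with the cyto-Met transgene, and WTE14/1, derived from a wild-type embryo liver, both at 14 days post coitum and with 1 array each. They were set against MMH-D3, a differentiated hepatocytic line, on 2 arrays.

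The labels describe primary cultures started on collagen I with epidermal growth factor, insulin-like growth factor II and insulin. Expansion in a serum-containing basal medium, for about 50 generations, is described for the RLSC lines only. The labels give neither the genotype of MMH-D3 nor the promoter of the transgene, and as background, MMH lines are known as hepatocyte lines immortalised by cyto-Met, a truncated form of the receptor Met. The source name of the WTE14/1 sample reads WT E14/3, and the title is used here. Whether the MMH-D3 arrays stand for separate cultures is not stated in the labels, so p-values here describe only the spread among these 4 arrays, which can be technical.

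Cadherins are calcium-dependent adhesion proteins that join like cells through their extracellular repeats. Classical cadherins carry a cytoplasmic tail that binds beta-catenin and p120-catenin, and alpha-catenin links that complex to actin. Hepatocytes are known to carry both E-cadherin (Cdh1) and N-cadherin (Cdh2) at their contacts, and loss of the first with gain of the second is called cadherin switching, a usual marker of the epithelial-mesenchymal transition.

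Signals are the deposited probe set intensities. Differences are on the scale of log2(signal + 4) after quantile normalization, as RLSC minus MMH-D3 with the moderated standard error (SE), and understate changes of low signals. A probe set was tested if its mean over the arrays passed the 40th percentile, a signal of about 11.7, and was called at a limma adjusted p below 0.05. Of the 17 probe sets, 10 from 6 genes passed the filter: those of Cdh1, Cdh17 and Cdh2, 1 of 2 for Cdh3, both for Cdh6 and 3 of 4 for Cdh13. The nearest to the filter were Cdh13 probe set 1454015_a_at inside it, with signals of 111, 170, 5.50 and 6.26 in MetE14/3, WTE14/1 and MMH-D3 arrays 1 and 2, and Cdh16 outside it, with 17.5, 10.4, 3.10 and 16.1. The 7 probe sets below the filter read between 0.321 and 17.5 on every array.

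**Figure D1:**
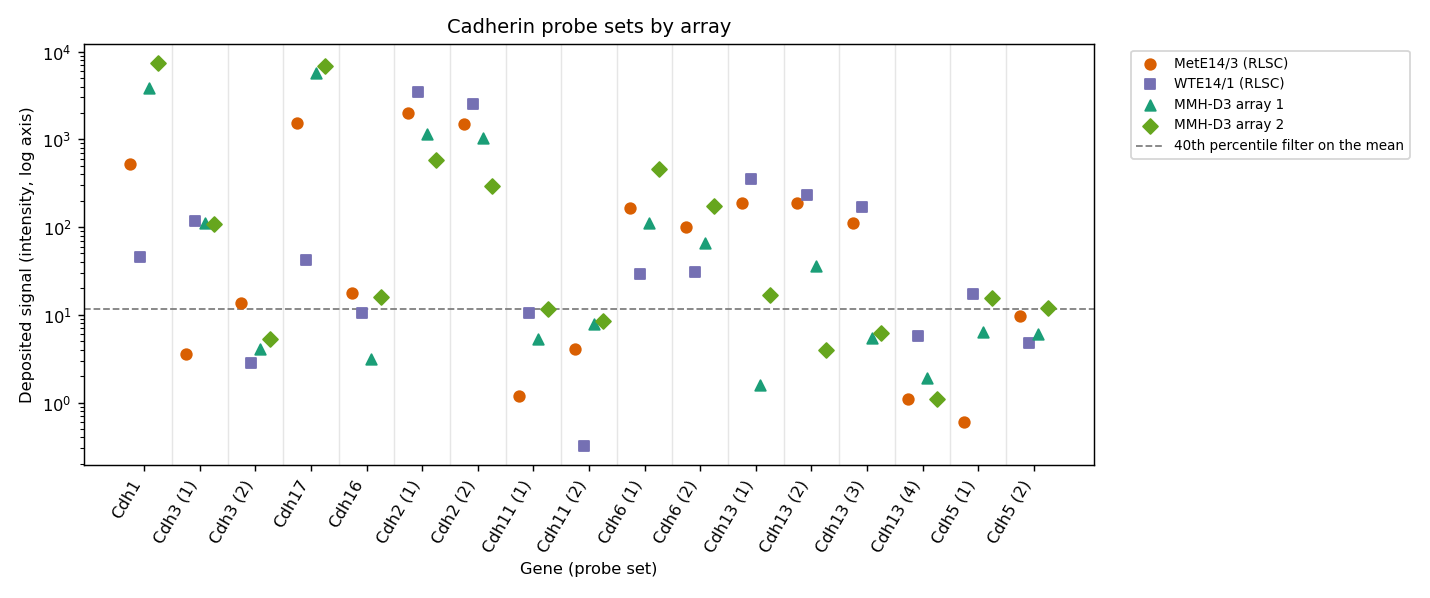
Deposited signal (log axis) of all 17 cadherin probe sets on each of the 4 arrays, with probe sets of 1 gene numbered by their mean signal and a dashed line at the filter signal of about 11.7. Cdh1 and Cdh17 lie below the MMH-D3 arrays in both RLSC lines, Cdh2 and 3 Cdh13 probe sets lie above them, and Cdh16, Cdh11 and Cdh5 stay at or below 17.5.

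The arrays also fell into pairs that cross the groups. The 24 poly-A control probe sets, for transcripts spiked into the RNA before labelling, read 10.6-fold higher (median) on the arrays of MetE14/3 and MMH-D3 array 1 than on those of WTE14/1 and MMH-D3 array 2, while the 18 hybridization controls read 0.878-fold. Each pair of arrays with like poly-A signals held 1 array of each group, so each cadherin is also given within both pairs. Among hepatocyte markers, albumin (Alb) was near the floor in the RLSC lines at 1.70 and 2.91 and low to moderate in MMH-D3 at 44.7 and 440, and Apoe, G6pc and Asgr1 lay below the filter signal on every array. Krt18 was at 8378 or more on every array.

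The epithelial cadherins Cdh1 and Cdh17 were lower in both RLSC lines than on either MMH-D3 array, by large differences that did not pass the test. E-cadherin, the adhesion receptor of epithelial adherens junctions, read 522 in MetE14/3 and 45.2 in WTE14/1, whereas MMH-D3 arrays 1 and 2 read 3816 and 7390. MetE14/3 lay between WTE14/1 and MMH-D3, on the log2 scale 3.74 above WTE14/1 and 2.78 below MMH-D3 array 1. The difference between RLSC and MMH-D3 was -5.16 (SE 1.15, 95% interval -7.95 to -2.36), which is 35.7-fold lower in RLSC (limma adjusted p = 0.153). It was -2.78 within the pair of high poly-A signals (MetE14/3 and MMH-D3 array 1) and -7.54 within the other. The size depended on the line: it was -7.03 with MetE14/3 left out (limma adjusted p = 0.0347) and -3.30 with WTE14/1 left out (limma adjusted p = 0.119). With 1 RLSC array left, the spread of a probe set comes from the MMH-D3 arrays alone, beside the pooling over probe sets by limma, and the RLSC array is assumed to vary as they do, so the p below the threshold leaves out the spread between the lines. In RNA from whole cultures, fewer cells carrying a transcript and less of it per cell cannot be told apart.

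Cdh17, the liver-intestine cadherin, has a short tail that does not bind catenins. Its signal was 1515 in MetE14/3 and 42.3 in WTE14/1, while MMH-D3 arrays 1 and 2 read 5654 and 6823. The 2 RLSC lines thus stood further from each other than MetE14/3 did from MMH-D3. The difference was -4.68 (SE 1.56, 95% interval -8.46 to -0.90; limma adjusted p = 0.340), -1.84 within the pair of high poly-A signals and -7.52 within the pair of low ones. It was -7.36 without MetE14/3 (limma adjusted p = 0.0245) and -1.97 without WTE14/1 (limma adjusted p = 0.135), again with the spread from MMH-D3 alone.

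P-cadherin (Cdh3), the classical cadherin of basal epithelial layers, did not follow E-cadherin. In the RefSeq gene order of assembly GRCm38.p6 no protein-coding gene lies between Cdh3 and Cdh1. Probe set 1426673_at read 3.60 in MetE14/3 and 118 in WTE14/1, compared with 110 and 108 on the MMH-D3 arrays. WTE14/1, the line with the least Cdh1, had a Cdh3 signal close to that of MMH-D3, and MetE14/3 alone was low. The difference of -2.02 (SE 1.17, 95% interval -4.86 to 0.82; limma adjusted p = 0.637) rests on MetE14/3: it was -4.08 within the pair of high poly-A signals, 0.05 within the other, and -0.11 without MetE14/3. The other Cdh3 probe set, 1441255_at, was below the filter and read 13.8 and 2.84 in RLSC and 4.10 and 5.29 in MMH-D3.

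Ksp-cadherin (Cdh16), a kidney epithelial relative of Cdh17, stayed low: 17.5 and 10.4 in the RLSC lines and 3.10 and 16.1 in MMH-D3. These signals overlapped between the groups.

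N-cadherin (Cdh2), the classical cadherin of neural and mesenchymal cells and of hepatocytes, was higher in both RLSC lines at both of its probe sets and had clear signal in MMH-D3 as well. Probe set 1418815_at read 1989 in MetE14/3 and 3436 in WTE14/1, compared with 1158 and 583 on the MMH-D3 arrays. The order of the 4 arrays was the reverse of that for Cdh1. Means were 2712 ± 1023 for RLSC and 870 ± 407 for MMH-D3 (SD, n = 2 each). The difference was 1.72 (SE 0.47, 95% interval 0.58 to 2.85) and missed the threshold (limma adjusted p = 0.234). Probe set 1449244_at read 1483 and 2498 in the RLSC lines and 1025 and 294 in MMH-D3, and differed by 1.88 (SE 0.65; limma adjusted p = 0.359). Within the pair of high poly-A signals the differences were 0.83 and 0.58, and within the pair of low ones 2.61 and 3.17. The neighbours MetE14/3 and MMH-D3 array 1 in this order were less far apart than the MMH-D3 arrays were from each other, which differed by 0.94 and 1.76 on the log2 scale.

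OB-cadherin (Cdh11), the classical cadherin of mesenchymal and osteoblast cells, had no probe set past the filter in either group. Probe set 1450757_at read 1.20 and 10.4 in the RLSC lines, with 5.30 and 11.8 in MMH-D3. Probe set 1435120_at read 4.10 and 0.321 in the RLSC lines, with 7.80 and 8.50 in MMH-D3. The higher N-cadherin signal of the RLSC lines was thus not accompanied by Cdh11 signal above the filter.

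K-cadherin (Cdh6), a classical cadherin of the embryonic kidney, split the RLSC lines. Probe set 1442257_at read 164 in MetE14/3 and 28.8 in WTE14/1, compared with 111 and 461 on the MMH-D3 arrays. MetE14/3 fell between the MMH-D3 arrays and WTE14/1 below both. Probe set 1450288_at gave the same order, with 100 and 30.6 in the RLSC lines and 66.3 and 172 in MMH-D3. The differences were -1.90 (SE 1.01, limma adjusted p = 0.595) and -1.16 (SE 0.75, limma adjusted p = 0.676), with opposite signs within the pairs: 0.32 and 0.30 within the pair of high poly-A signals and -4.13 and -2.62 within the pair of low ones.

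T-cadherin (Cdh13) is attached to the membrane by a lipid (GPI) anchor, lacks a cytoplasmic tail and is known as a receptor for adiponectin. It held the one cadherin probe set that was called, 1454015_a_at, which passed the filter through its RLSC signals alone. It averaged 140 ± 41.7 for RLSC and 5.88 ± 0.534 for MMH-D3 (SD, n = 2 each) and rose in RLSC by 3.69 (SE 0.48, limma adjusted p = 0.0407). Its MMH-D3 signals were below the filter signal, so both the size and entry to the test rest on RLSC, and the difference was 4.15 with pseudocount 1 and 2.71 with pseudocount 16. Probe set 1423551_at read 188 in MetE14/3 and 350 in WTE14/1, and 1.60 and 16.7 in MMH-D3. Its MMH-D3 mean signal of 9.1 was below the filter signal, so it too entered the test through RLSC. It differed by 4.56 (SE 0.70), short of the threshold (limma adjusted p = 0.0589), and passed it with the poly-A pair as a block (0.0288). Probe set 1434115_at read 189 and 233 in the RLSC lines, with 35.7 and 4.02 in MMH-D3 (difference 3.39, SE 0.88, limma adjusted p = 0.213). All 3 sets had both RLSC lines above both MMH-D3 arrays, and within the pairs their differences ran between 1.94 and 4.99. The fourth probe set, 1431824_at, read 1.10 and 5.73 in RLSC and 1.90 and 1.10 in MMH-D3. The call at 1454015_a_at was lost on leaving out any 1 of the 4 arrays (limma adjusted p between 0.0827 and 0.294) and without the filter (0.120).

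VE-cadherin (Cdh5), the cadherin of endothelial junctions, was low in all lines. Its probe set 1422047_at read 0.6 and 17.4 in the RLSC lines and 6.30 and 15.6 in MMH-D3, and 1433956_at read 9.60 and 4.73 in RLSC and 6.10 and 12.0 in MMH-D3. The endothelial markers Pecam1, Tie1, Erg and Vwf lay below the filter signal on every array. The summed signal of the 14 endothelial markers was 278 and 352 in the RLSC lines, with 299 and 398 in MMH-D3.

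Some markers of other cell types moved along with the cadherins. Over all tested probe sets, 19.5% lay below both MMH-D3 arrays and 21.2% above both. Over all genes, 0.500% were called lower and 0.421% higher. Of 9 tested mesothelial markers, 3 fell (Upk1b, Wt1 and Bnc1) and 7 lay below both MMH-D3 arrays, and Lrrn4 was below the filter signal on every array. The summed mesothelial signal was 10877 and 5976 in the RLSC lines, with 25607 and 32965 in MMH-D3, and Krt19 was its largest member on each array. The 7 cholangiocyte markers summed to 9433 and 4615 in RLSC and 20824 and 27834 in MMH-D3. The sum was carried mainly by Krt19 and Krt7 in RLSC, and by Krt19 and Tspan8 in MMH-D3. Tspan8 fell and 5 of the 7 lay below both MMH-D3 arrays, but Sox9 (2.67, limma adjusted p = 0.157) and Aqp1 (2.91, limma adjusted p = 0.0702) lay above both. Stellate and fibroblast markers were mixed as well: of 11 tested, Fn1 and Acta2 rose, 4 lay above both MMH-D3 arrays, 1 (Pdgfra, -0.79) below both and 6 overlapped, with a median of 0.27. Their summed signal was 21951 and 35099 in RLSC and 15948 and 16140 in MMH-D3, of which Vim, at 13466 and 17248 in RLSC and 13957 and 14172 in MMH-D3, was the largest member on each array and overlapped. Hepatocyte markers summed to 18556 and 12757 in RLSC and 33374 and 40890 in MMH-D3, a sum carried mainly by Krt18 and Krt8. All 8 tested lay below both MMH-D3 arrays, and Apob and Afp fell, with 3 of the 4 Afp probe sets of this sign. The 9 blood and macrophage markers summed to 589 and 521 in RLSC and 1918 and 3782 in MMH-D3, none called. Cd14 was the largest of them on each array. Krt19 counts in both the cholangiocyte and the mesothelial list. The part of these cell types in the cadherin differences was not tested.

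**Figure D2:**
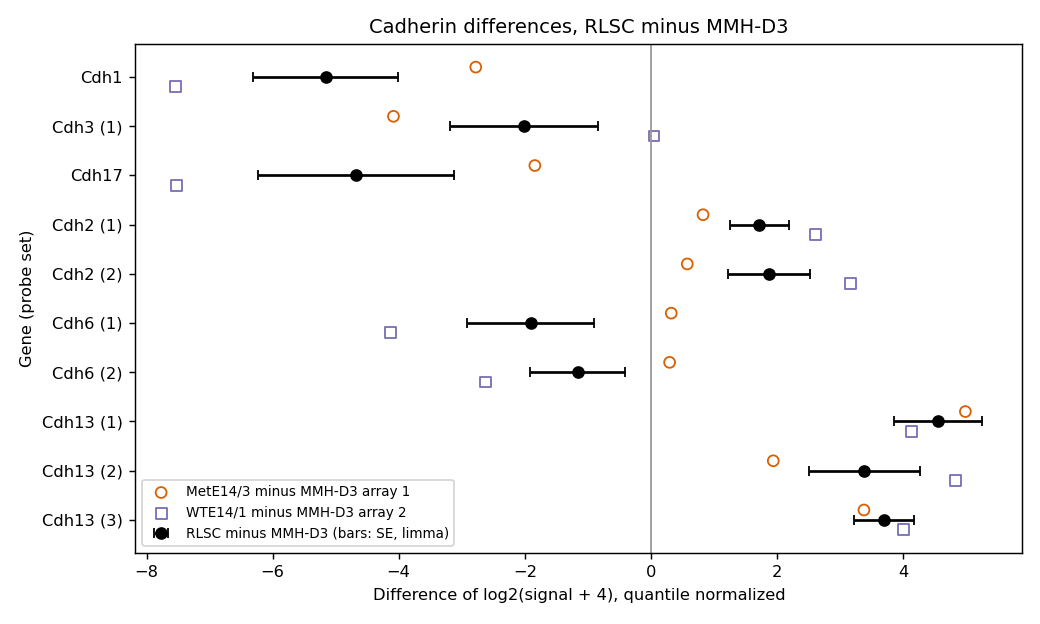
Differences of log2(signal + 4) between RLSC and MMH-D3 for the 10 cadherin probe sets past the filter (filled points with SE from limma), with the single-array differences within each poly-A pair as open symbols. Cdh1 and Cdh17 are negative and Cdh2 and Cdh13 positive in both pairs, while Cdh6 changes sign between the pairs and Cdh3 lies near 0 in the pair of low poly-A signals.

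Read against all probe sets, calls were few for the cadherins and for the array as a whole. Of the 10 tested cadherin probe sets, 1 was called higher (1454015_a_at of Cdh13, tested through its RLSC signals), where 0.340% of all 27022 tested probe sets were, and none was called lower, where 0.392% were. At an unadjusted limma p under 0.05 there were 5 higher and 2 lower cadherin probe sets, and 2903 of the 27022 tested probe sets in all. Both RLSC lines lay above both MMH-D3 arrays at 5 cadherin probe sets, of which 2 belong to Cdh2 and 3 to Cdh13, beside a background of 21.2%. Of the 3 Cdh13 sets, 1454015_a_at and 1423551_at entered the test through RLSC. The RLSC lines lay below both MMH-D3 arrays at 2, those of Cdh1 and Cdh17, beside 19.5%. The members' probe sets are not independent, as those of 1 gene read the same transcript, and members were chosen with earlier results known. No probe set of the whole array was called by limma without MMH-D3 array 1 or without array 2, where 4202 and 2141 had an unadjusted p under 0.05, and 9 were called without WTE14/1.

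The contrast of N-cadherin with E-cadherin was also taken within each array, as log2 Cdh2 minus log2 Cdh1 at the probe set with the highest mean of each gene. Probes of different genes are not on a common scale, so only the change of this value between arrays can be read. It was 1.92 in MetE14/3 and 6.50 in WTE14/1, compared with -1.68 and -3.65 on MMH-D3 arrays 1 and 2. Both RLSC lines stood above both MMH-D3 arrays, and WTE14/1 stood above MetE14/3. The means differed by 6.88, RLSC minus MMH-D3, with an exact two-sided permutation p of 0.333, the smallest that 2 against 2 arrays allow, and 0.5 adjusted over the 3 pairs of cadherins compared. With the other Cdh2 probe set the difference was 7.03.

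The other pairs were Cdh11 minus Cdh1 and Cdh3 minus Cdh1. Cdh11 minus Cdh1 was -6.61 in MetE14/3 and -1.68 in WTE14/1, compared with -8.37 and -8.92 in MMH-D3. The means differed by 4.50, RLSC minus MMH-D3 (exact permutation p = 0.333, adjusted 0.5). Cdh11 itself was below the filter, with mean signals of 5.81 for RLSC and 8.54 for MMH-D3. This value therefore follows Cdh1 and shows no gain of Cdh11. Cdh3 minus Cdh1 was -6.06 in MetE14/3 and 1.49 in WTE14/1, compared with -4.76 and -6.10 in MMH-D3. MetE14/3 lay among the MMH-D3 arrays and WTE14/1 alone stood apart (exact permutation p = 0.667, adjusted 0.667).

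**Figure D3:**
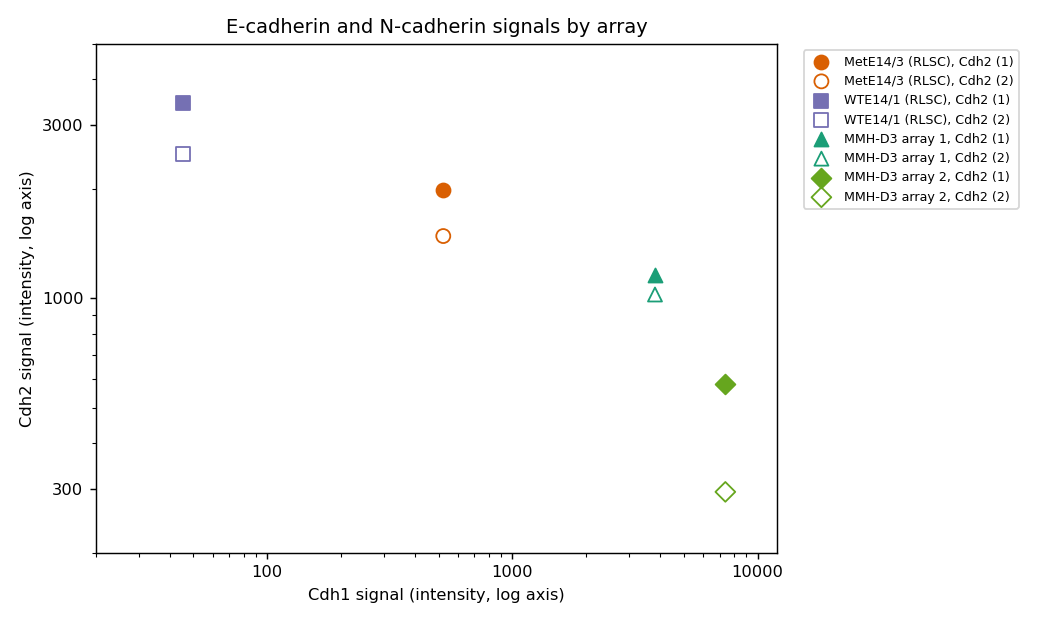
Deposited signals of Cdh1 (horizontal, log axis) and Cdh2 (vertical, log axis; filled symbols for probe set 1418815_at, open for 1449244_at) on the 4 arrays. The arrays run in 1 order, from WTE14/1 with a Cdh1 signal of 45.2, through MetE14/3 at 522, to MMH-D3 array 1 at 3816 and array 2 at 7390, while the Cdh2 signal falls.

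Between the RLSC lines, with 1 array each and hence no test, Cdh1 and Cdh17 were higher in MetE14/3. P-cadherin (Cdh3) was higher in WTE14/1 at its probe set past the filter. MetE14/3 minus WTE14/1 was 3.74 for Cdh1, 5.37 for Cdh17 and -3.82 for Cdh3, the first 2 being 13.3-fold and 41.5-fold. The Cdh3 signal of MetE14/3 at that probe set was below the filter signal, so the size of the difference is not settled. It ran between -4.48 with pseudocount 1 and -2.62 with pseudocount 16. The other Cdh3 probe set, below the filter, went the other way, with 13.8 in MetE14/3 and 2.84 in WTE14/1. For Cdh6 the line difference was 2.68 and 1.92 at the 2 probe sets. MetE14/3 was at least 4-fold above WTE14/1 at 3 of the 10 cadherin probe sets, beside 2.47% of all tested, and at least 4-fold below it at 1, beside 2.04%.

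Cdh2 and Cdh13, the members higher in both RLSC lines, differed less between the lines. Cdh2 differed by -0.84 and -0.83 and the 3 Cdh13 probe sets by -0.84, -0.22 and -0.47, all higher in WTE14/1 and all under 2-fold. MMH-D3 arrays 1 and 2 differed by at least 4-fold at 1 cadherin probe set, Cdh13 1434115_at with 2.68, beside 5.64% of all. For Cdh1, Cdh17 and Cdh3 the MMH-D3 arrays differed by -1.02, -0.30 and 0.32, array 1 minus array 2. MetE14/3 shared its poly-A level with MMH-D3 array 1 and WTE14/1 with array 2, so line and poly-A level cannot be told apart in the line difference. The MMH-D3 difference had the opposite sign to the line difference at 9 of the 10 cadherin probe sets and at 43.9% of all tested.

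**Figure D4:**
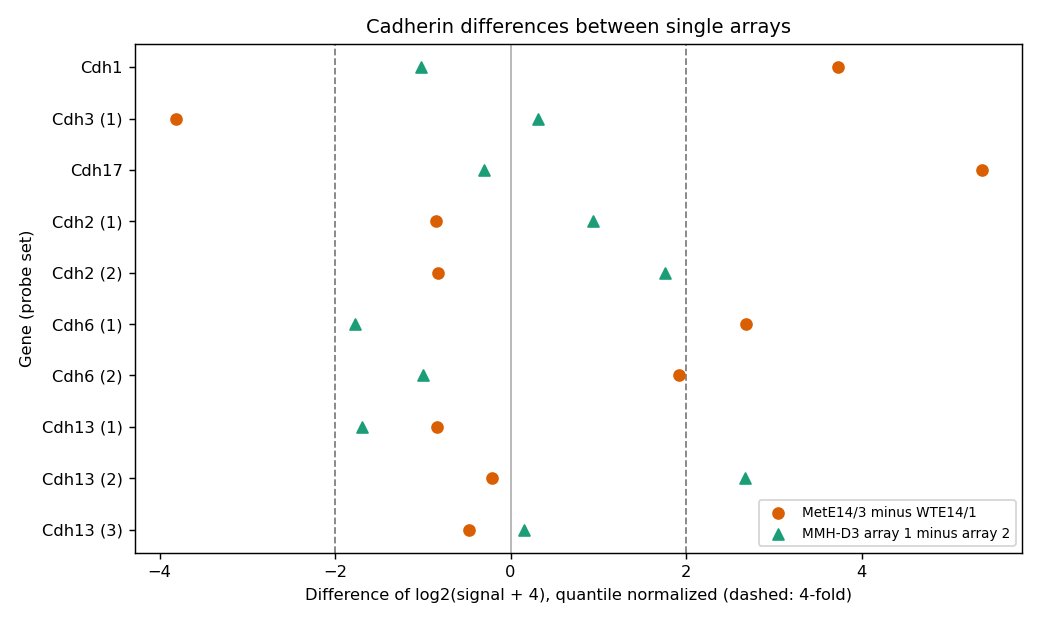
Differences of log2(signal + 4) between single arrays for the 10 cadherin probe sets past the filter: MetE14/3 minus WTE14/1 (circles) and MMH-D3 array 1 minus array 2 (triangles), with dashed lines at 4-fold. Cdh1, Cdh17 and the first Cdh6 probe set lie beyond 4-fold towards MetE14/3 and Cdh3 towards WTE14/1, whereas 1 Cdh13 probe set is beyond it between the MMH-D3 arrays.

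Genes with the profile nearest to that of Cdh1 were sought by the Euclidean distance between log2 profiles over the 4 arrays, each centred on its mean. The 5 nearest of 12597 were Hgfac, the activator of hepatocyte growth factor (distance 0.454), Mlph, the melanosome adaptor melanophilin (0.512), Gcnt3, a mucin-type glycosyltransferase (0.520), Mrc1, the mannose receptor (0.564), and Ffar4, a fatty acid receptor (0.565). Each was lowest in WTE14/1, next in MetE14/3 and highest on MMH-D3 array 2. Hgfac read 91.5 and 2.81 in the RLSC lines, with 460 and 874 in MMH-D3. Of the other cadherins, Cdh17 stood 22nd in this order (1.35) and Cdh6 315th (3.38), a look taken after their values were seen.

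For Cdh2, the member with the highest RLSC mean, the nearest were Nav1, a microtubule-associated neuron navigator (0.184), Otud1, a deubiquitinase (0.203), Tulp3, a ciliary trafficking adaptor (0.225), Mex3b, an RNA-binding protein (0.226), and Sparc, the matrix protein osteonectin (0.251). Sparc read 5419 and 10400 in the RLSC lines, with 3833 and 1452 in MMH-D3. With 4 arrays many genes share an order, and these distances are a description only.

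The catenins Ctnnb1, Ctnna1 and Ctnnd1 differed far less than Cdh1 did. Of 26 catenin and adherens junction genes on the array, nectins included, 23 were tested and none was called by limma. Over 12598 genes, 0.421% were called higher and 0.500% lower at the probe set with the highest mean. An unadjusted limma p under 0.05 was reached by 6, beside 2903 of all 27022 probe sets. The median difference of the 23 was 0.20, beside 0.03 over all genes. The largest differences went both ways: -1.66 for Nectin2, -1.65 for Plekha7 and 1.57 for Shroom3, named after their values were seen. Beta-catenin (Ctnnb1), which binds the cadherin tail and also carries Wnt signals, read 7921 and 6805 in the RLSC lines, with 8249 and 8068 in MMH-D3 (-0.07, SE 0.21). Alpha-catenin (Ctnna1), the link to actin, read 5537 and 5255 in the RLSC lines, with 6876 and 7583 in MMH-D3 (-0.35, SE 0.19; limma adjusted p = 0.623). The p120-catenin gene Ctnnd1, whose product holds cadherins at the surface, differed by 0.46 (SE 0.40).

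Plakoglobin (Jup), which takes the place of beta-catenin in desmosomes and junctions, read 200 and 271 in the RLSC lines, with 338 and 916 in MMH-D3. At -1.33 (SE 0.57) it did not pass (limma adjusted p = 0.483). Of the same list, vinculin (Vcl), an actin linker of junctions under tension that was picked out here after its value was seen, read 5566 and 2761 in the RLSC lines, with 1702 and 1382 in MMH-D3 (1.44, SE 0.39, limma adjusted p = 0.231).

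Among 26 transcription factors and splicing factors known to repress or activate cadherin genes, 21 passed the filter. By limma 1 was called higher, beside 0.421% of all genes, and none lower, beside 0.500%. An unadjusted limma p under 0.05 was reached by 10, beside 2903 of all 27022 probe sets. The median difference was -0.35. Of the 21, 6 lay above both MMH-D3 arrays and 8 below both, beside 21.2% and 19.5% of all probe sets. At the probe set of highest mean, the epithelial factors Klf4 (-3.71, SE 0.59, limma adjusted p = 0.0648) and Ehf (-3.31, SE 0.60, limma adjusted p = 0.0915), named after their values were seen, did not pass, though 1 of the 3 Ehf probe sets, all lower in RLSC, was called. Hnf4a and Grhl1, named in the same way, were lower too and did not pass. Hnf4a had the largest difference of the list (-4.90, SE 1.36, limma adjusted p = 0.239), with all 4 tested probe sets of this sign. It read 205 in MetE14/3, 6.76 in WTE14/1, and 1049 and 1687 in MMH-D3, the WTE14/1 signal being below the filter signal. Grhl1 differed by -2.43 (SE 0.54, limma adjusted p = 0.153). Foxa1, also named after its values were seen, went the other way and did not pass (3.82, SE 1.14, limma adjusted p = 0.278). It read 568 and 67.5 in RLSC and 2.30 and 21.9 in MMH-D3, the first MMH-D3 signal being below the filter signal. Twist2, a basic helix-loop-helix factor of mesenchyme, read 490 and 303 in the RLSC lines, with 15.8 and 15.3 in MMH-D3, and rose by 4.18 (SE 0.50, limma adjusted p = 0.0353). That call was lost without the filter (limma adjusted p = 0.0777) and on leaving out any 1 array (0.0755 to 0.259). Its relative Twist1 was at or below 9.61 on every array.

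The repressors of the Cdh1 gene with zinc fingers did not pass. Zeb2 read 135 and 291 in the RLSC lines, with 28.4 and 55.0 in MMH-D3 (2.05, SE 0.54, limma adjusted p = 0.216), and all 4 tested probe sets of the gene had this sign. Zeb1 read 734 and 464 in the RLSC lines, with 424 and 202 in MMH-D3 (0.97, SE 0.55), with 1 of its 2 probe sets of the opposite sign. Snai1 was low on all arrays, with 18.9 and 43.2 in RLSC and 1.80 and 16.96 in MMH-D3 (1.45, SE 0.71). Snai2 overlapped between the groups, with 927 and 1157 in RLSC and 183 and 1527 in MMH-D3. Zeb2 was thus highest in WTE14/1 and Zeb1 in MetE14/3.

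Grhl2, an activator of epithelial junction genes, read 17.5 and 47.3 in RLSC and 27.6 and 36.9 in MMH-D3 (-0.35, SE 0.52). Further members were singled out after their values were seen: Esrp2, an epithelial splicing regulator, with 64.4 and 55.5 in RLSC and 384 and 572 in MMH-D3 (-3.06, SE 0.47, limma adjusted p = 0.0608), and Cdx2, an intestinal factor known to activate Cdh17 in human cells, with 370 and 245 in RLSC and 510 and 433 in MMH-D3 (-0.69, SE 0.45). Between the lines, with 1 array each, MetE14/3 minus WTE14/1 was 0.66 for Cdx2 and 5.37 for Cdh17. A part of Cdx2 in the Cdh17 difference was not tested.

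Of 26 genes for cleavage and trafficking of cadherins, 23 were tested. None was called by limma, beside 0.421% of all genes called higher and 0.500% called lower, which does not show that they stayed the same. An unadjusted limma p under 0.05 was reached by 5, beside 2903 of all 27022 probe sets. The median difference of the 23 was -0.24, and 5 lay above both MMH-D3 arrays and 8 below both, beside 21.2% and 19.5% of all probe sets. The largest difference, named after its values were seen, was that of Mmp14 (1.65, SE 0.44, limma adjusted p = 0.223). It read 1187 and 1311 in the RLSC lines, with 279 and 546 in MMH-D3, and all 3 tested probe sets had this sign. Adam10, the sheddase of E- and N-cadherin, read 2027 and 1933 in the RLSC lines, with 1226 and 2308 in MMH-D3 (0.29, SE 0.40). The most abundant members were Arf6 (-0.24, SE 0.24) and Rab11a (-0.85, SE 0.30), which act in the uptake and recycling of E-cadherin, and neither passed.

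Of 7 genes for sugar transfer to cadherins, 6 were tested. By limma 1 was called lower, beside 0.500% of all genes, and none higher, beside 0.421%. An unadjusted limma p under 0.05 was reached by 3, beside 2903 of all 27022 probe sets, and the median difference was -0.77. Tmtc2, 1 of 4 related genes whose human products attach O-mannose to cadherins, read 12.9 and 16.3 in the RLSC lines, with 333 and 954 in MMH-D3. It fell by 5.06 on the log2 scale (SE 0.59, limma adjusted p = 0.0350), with the call lost without the filter (0.0777) and without any 1 array (0.0751 to 0.239). It had 2 tested probe sets, both lower in RLSC, of which 1 was called. Its relatives Tmtc3 (0.65, SE 0.45) and Tmtc4 (0.28, SE 0.33) did not pass, and Tmtc1 lay below the filter. The N-glycan branching genes Mgat3 (-1.83, SE 0.53) and Mgat5 (-2.12, SE 0.78), named after their values were seen, had both RLSC lines below both MMH-D3 arrays and did not pass, and Fut8 overlapped (0.31, SE 0.63).

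Among 41 further cadherin superfamily genes with a probe set, 22 were tested. By limma 1 was called higher, beside 0.421% of all genes, and none lower, beside 0.500%. An unadjusted limma p under 0.05 was reached by 4, beside 2903 of all 27022 probe sets, and the median difference was 0.03. The protocadherin Pcdh18 read 217 and 660 in the RLSC lines, with 1.80 and 3.03 in MMH-D3, and rose by 5.86 (SE 0.64, limma adjusted p = 0.0296). Its MMH-D3 signals were below the filter signal, so both the size and entry to the test rest on RLSC. The difference was 6.73 with pseudocount 1 and 4.42 with pseudocount 16. All 3 tested Pcdh18 probe sets were called, and with the highest one the call was lost without the filter (0.0771), without WTE14/1 (0.0887) and without either MMH-D3 array (0.101 and 0.256). The giant cadherin Fat1 was alike in signal on all arrays, at 3446 and 2822 in RLSC and 3511 and 2773 in MMH-D3 (0.08, SE 0.26), and was named after its values were seen. So were Cdhr5 (-3.27, SE 1.04, limma adjusted p = 0.312) and Cdhr2 (-2.41, SE 0.91, limma adjusted p = 0.416). Cdhr5 read 95.3 and 15.2 in RLSC and 165 and 779 in MMH-D3. Cdhr2 read 30.5 and 2.17 in RLSC and 43.8 and 99.8 in MMH-D3. Of the 22, 7 lay below both MMH-D3 arrays and 5 above both, beside 19.5% and 21.2% of all probe sets.

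**Figure D5:**
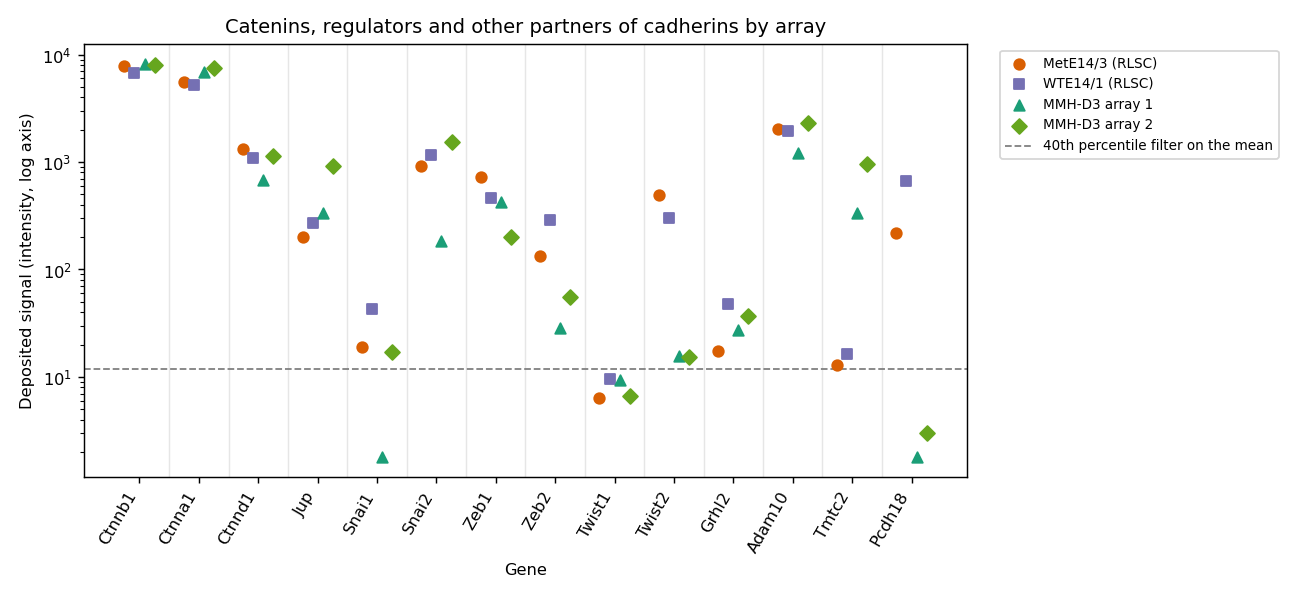
Deposited signal (log axis) of catenins, cadherin regulators and other partner genes on each array, with a dashed line at the filter signal of about 11.7. The catenins Ctnnb1, Ctnna1 and Ctnnd1 cluster within each gene, Twist2 and Pcdh18 are higher in both RLSC lines, and Tmtc2 is higher on both MMH-D3 arrays.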

How the data were processed

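RNA of each of the 4 samples was labelled (5 μg) and hybridized (15 μg of cRNA) to 1 array, per the labels' protocols. Each deposited value is the linear signal intensity of a probe set from the Affymetrix program GCOS, per the submitters' processing notes. No source used here gives its version or algorithm. Trimmed by 2% at either end, the mean was 200.001 on every array.

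Names came from the platform annotation, checked by Entrez identifier against RefSeq (GRCm38.p6): 34958 probe sets had 1 symbol, 932 several and the rest none. RefSeq promoter sequences matched Cdh6 alone, and none is printed.

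Values were log2(signal + 4), quantile normalized because array medians differed by 0.614 on that scale, and filtered at the 40th percentile of the mean without 64 control probe sets. All 27022 probe sets were fitted with limma 3.58.1 in R 4.3.3 (lmFit, eBayes with intensity trend, group only, two-sided, Benjamini-Hochberg over all probe sets, 2 residual and 4.22 prior degrees of freedom). A gene in a partner list stood for its probe set with the highest mean. Overlap of groups was judged on normalized values. The fit was tested on simulated data. Named genes were all members, called partners, fixed partners (catenins, Snai, Zeb, Twist, Grhl2, Adam10), and the most abundant of each list. Members and lists were chosen with earlier results of these data known. Alternatives were scaling, pseudocount, filter, gene level, the poly-A pair as a block or separately, and each array left out. The number of arrays limits the precision.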

Additional observations from a re-analysis of the deposited data

How the results depend on the processing

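The cadherin directions held under scaling, pseudocount, filter, gene-level, blocked and leave-one-out fits. Within single poly-A pairs they turned to 0.049 for Cdh3 (WTE14/1 and MMH-D3 array 2) and to 0.32 and 0.30 for the Cdh6 probe sets (MetE14/3 and MMH-D3 array 1). The cause was not tested. Limma called 198 probe sets, 92 higher and 106 lower, but 130 with pseudocount 1 (61 and 69), 40 without a filter (22 and 18), where more probe sets are tested, and 115 at gene level (50 and 65), where fewer are. Leaving out 1 array gave 0 to 184 in all, 0 to 59 higher and 0 to 125 lower. Called higher among cadherin probe sets were 2 with the deposited scaling, pseudocount 16 or the poly-A block (both of Cdh13), 0 without a filter, and at the 60th percentile or at gene level, where 1454015_a_at is not tested, and 0 to 0 with 1 array left out. Called lower were 0 to 2 with 1 array left out. The block changed no other cadherin call. MetE14/3 and WTE14/1 were at least 4-fold apart at 1218 probe sets, and at 693 with pseudocount 16. Partner genes called lower were 1, and 2 with the deposited scaling. The RLSC minus MMH-D3 change of Cdh2 relative to Cdh1 ran between 6.65 and 7.03. Signals near the filter carry little information on size, and no detection calls were used.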
